A study of Mus musculus with 6 samples.

Results

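The 10 genes described here are Dcx, Tubb3, Stmn2, Stmn3, Map2, Gap43, Elavl3, Elavl4, Rbfox3 and Prox1. They are used as markers of new and maturing neurons and their growing processes. They were taken by symbol from a table of 22322 genes, and all 10 were present and passed the filter on low counts. The samples were wild-type (WT) mouse neural stem progenitor cells (NSPCs), collected 24 h after PTN in 3 libraries or after PBS in 3 libraries called Control. PTN is given only as an abbreviation, read here as pleiotrophin, a secreted heparin-binding growth factor. The title places the PTN addition in a conditioned medium setting. Dose, strain, age of the donor animals and passage are not stated in the labels, nor is it stated whether the replicates were separate cultures. The p-values therefore set the difference between the groups against the spread between these libraries, which may be technical. All 10 genes were measured in bulk RNA, in which more cells making a transcript and more transcript per cell cannot be told apart.

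A progenitor that leaves the cell cycle to become a neuron builds a new microtubule and actin skeleton and extends a process tipped by a growth cone. Neuron-restricted tubulin, microtubule-associated proteins and stathmins set how stable the microtubules are, and Gap43, a membrane-bound protein kinase C substrate, acts on actin in the growth cone. Elavl and Rbfox proteins then control the splicing, stability and translation of neuronal messages, and Prox1, a homeobox transcription factor, acts in neural progenitors leaving the cell cycle and in granule neurons of the dentate gyrus. Several of these transcripts are also made by progenitors and glia.

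The 250 bases upstream of an annotated start are shown for 3 of the 4 genes that passed the test below. These 3 were picked because they moved in opposite directions and a window of each holds an E-box. The E-box, CANNTG, is the core recognised by proneural basic helix-loop-helix factors. The sequences are RefSeq's, on GRCm38.p6, read 5′ to 3′ on the strand of the gene, and capitals mark each CANNTG. The Prox1 window is chr1:190170828-190171077, minus strand, 1 of 2 windows listed for this gene. The other, chr1:190169516-190169765, holds 0 matches to CANNTG and is not shown.
Prox1: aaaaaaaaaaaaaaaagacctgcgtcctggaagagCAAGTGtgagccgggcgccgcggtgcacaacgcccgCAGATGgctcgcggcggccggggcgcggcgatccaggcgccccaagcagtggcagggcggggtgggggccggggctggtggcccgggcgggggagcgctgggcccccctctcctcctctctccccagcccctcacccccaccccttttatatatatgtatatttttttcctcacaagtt
The Elavl3 window is chr9:22052024-22052273, minus strand.
Elavl3: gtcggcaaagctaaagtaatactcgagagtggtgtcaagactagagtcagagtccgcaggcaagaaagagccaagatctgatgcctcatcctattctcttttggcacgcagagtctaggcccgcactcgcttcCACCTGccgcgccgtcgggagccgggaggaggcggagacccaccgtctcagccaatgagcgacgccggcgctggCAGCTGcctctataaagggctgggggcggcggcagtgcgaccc
The Stmn3 window is chr2:181314501-181314750, minus strand.
Stmn3: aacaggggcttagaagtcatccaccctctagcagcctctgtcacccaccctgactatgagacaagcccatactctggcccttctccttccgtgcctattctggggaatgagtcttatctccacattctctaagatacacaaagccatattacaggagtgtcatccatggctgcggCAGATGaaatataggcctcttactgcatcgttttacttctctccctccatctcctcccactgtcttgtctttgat
Prox1 holds CAAGTG 215 bases and CAGATG 179 bases before the start, Elavl3 holds CACCTG at 117 and CAGCTG at 43 bases, and Stmn3 holds CAGATG at 75 bases. CANNTG reads as CANNTG on both strands, and 66.2% of 32841 promoter windows of this length hold at least 1 match. The narrower CAGCTG, which CANNTG includes, is in 13% of windows, and CAGATG or its complement CATCTG, also included, is in 14.4%. A match is a description of these letters and not a site. Of the 10 genes, 8 had an entry in the promoter table, Gap43 and Stmn2 being the others.

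Gap43, Prox1 and Elavl3 rose with PTN, Stmn3 fell, and the other 6 genes did not pass the test. The test was edgeR's quasi-likelihood test on rounded expected counts, adjusted by the Benjamini-Hochberg method over 13161 tested genes and called under 0.05. Among all tested genes 7.99% were called, 4.93% higher and 3.06% lower, against 3 higher and 1 lower of the 10. The median log2 fold change was 0.37 over the 10 genes and 0.03 over all tested genes. The median of the 10 was 0.14 without Control 1, 0.66 without PTN 3, 0.17 with the trend of fold change with gene length removed and 0.13 on log2(FPKM + 1). In CPM, PTN and Control values did not overlap for 6 of the 10, with PTN above for Gap43, Prox1, Elavl3 and Rbfox3 and PTN below for Tubb3 and Stmn3. Over all tested genes the groups did not overlap for 32.9%, with PTN above for 15.7% and below for 17.1%. When each library was left out in turn, between 1 and 3 of the 10 were called higher and 0 or 1 lower, with 1 called in all without Control 1. The same 4 genes were called without PTN 3.

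**Figure D1:**
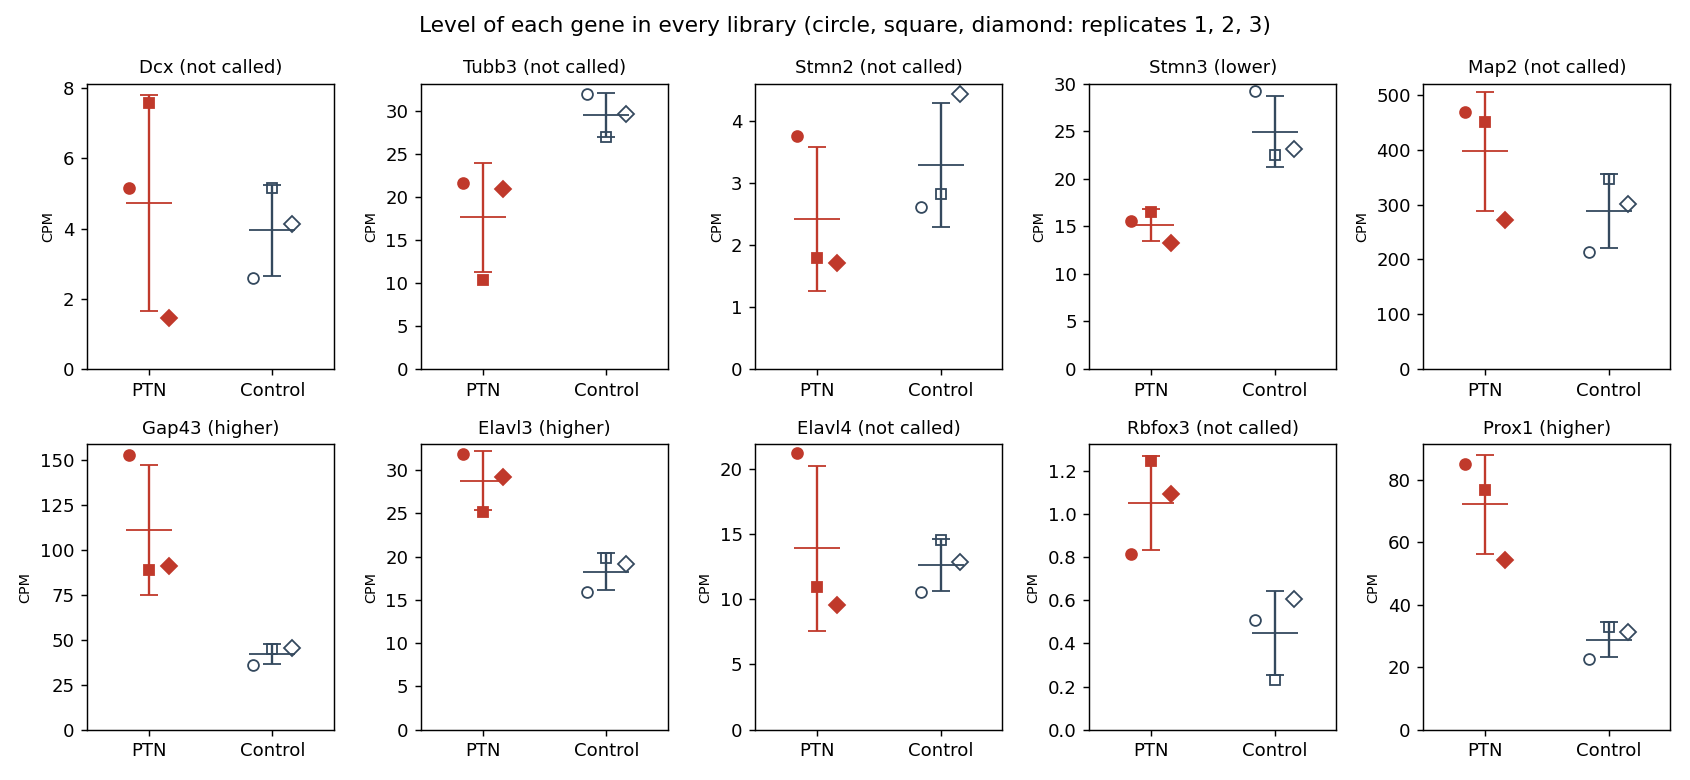
CPM (counts scaled to a common library total, with TMM factors) of each of the 10 genes, with PTN left and Control right in each panel. Points are libraries, bars are mean ± SD (n = 3 each), and Gap43, Prox1, Elavl3, Rbfox3, Tubb3 and Stmn3 show no overlap between the groups.

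Gap43 (ENSMUSG00000047261) and Prox1 gave the largest called changes of the 10. Gap43 had 153, 89.0 and 91.3 CPM in PTN 1, 2 and 3, against 35.7, 44.7 and 45.7 CPM in Control 1, 2 and 3. Every PTN library lay above every Control library, PTN 1 standing well above the other PTN libraries. The means were 111 ± 36.3 CPM with PTN and 42.0 ± 5.49 CPM in Control (SD, n = 3 each), a 2.64-fold difference (log2 1.40 ± 0.23 SE, edgeR adjusted p = 0.00985). Without Control 1 the adjusted p was 0.0504. It passed under the other 17 alternatives.

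Prox1 (ENSMUSG00000010175) had 85.2, 76.7 and 54.3 CPM with PTN, against 22.5, 32.8 and 31.1 CPM in Control. The lowest PTN library, PTN 3, was still above the highest Control library. The means of 72.1 ± 16 CPM with PTN and 28.8 ± 5.52 CPM in Control (SD, n = 3 each) differed 2.50-fold (log2 1.32 ± 0.22 SE, edgeR adjusted p = 0.00922). Prox1 passed under all 18 alternatives, with log2 fold changes of 1.02 to 1.49. Its antisense neighbour Prox1os shares 133 exonic bases with it, or 1.59% of its exonic length, and whether the counting used strand is not stated in the labels or the table.

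Among the RNA-binding proteins, Elavl3 (HuC, ENSMUSG00000003410), a neuronal binder of AU-rich messages, rose. Elavl3 had 31.9, 25.1 and 29.2 CPM with PTN, against 15.9, 19.8 and 19.1 CPM in Control, with no overlap. This was a 1.57-fold difference between 28.8 ± 3.40 CPM with PTN and 18.3 ± 2.10 CPM in Control (SD, n = 3 each), log2 0.65 ± 0.17 SE, edgeR adjusted p = 0.0485. The Elavl3 call lies at the threshold. It passed under 7 of 18 alternatives, and the adjusted p was 0.0542 with upper-quartile scaling and 0.120 to 0.172 without PTN 1 or any 1 of the Control libraries. Elavl3 also shares 256 exonic bases, 3.72% of its own, with the same-strand gene Gm49318. Gm49318 was listed at 0 in all 6 libraries, and the counts of Elavl3 were whole.

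Elavl4 (HuD), the close paralogue that binds Gap43 mRNA among others, was not called, which does not show that its level was the same in both groups. Its values were 21.2, 10.9 and 9.57 CPM with PTN, against 10.6, 14.5 and 12.8 CPM in Control. PTN 1 was the highest library and PTN 3 the lowest, so the PTN libraries spanned the whole Control range. The log2 fold change was 0.14 ± 0.30 SE (edgeR adjusted p = 0.775) and turned to -0.30 in the lowest of the fits that left out 1 library.

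Rbfox3 (NeuN), the splicing regulator of maturing neurons, was near the lower limit of detection. It had 21, 28 and 21 counts with PTN, against 12, 6 and 13 counts in Control, or 0.815, 1.25 and 1.09 CPM against 0.507, 0.229 and 0.608 CPM. The groups did not overlap in CPM, and the log2 fold change was 1.23 ± 0.44 SE, yet the edgeR adjusted p was 0.123. At these counts a difference of this size was not resolved from the spread between libraries. In FPKM the values were 0.37, 0.62 and 0.46 with PTN, against 0.31, 0.21 and 0.37 in Control, so the groups met at 0.37. On log2 FPKM the difference was 0.56 with a pseudocount of 0.1. It was 0.19 with a pseudocount of 1, which is above the level of the gene.

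The microtubule genes did not move together. Stmn3 (ENSMUSG00000027581), a stathmin that destabilises microtubules and is enriched in neurons, had 15.6, 16.5 and 13.3 CPM with PTN, against 29.2, 22.5 and 23.2 CPM in Control. The PTN libraries lay close together and all below Control. The means were 15.1 ± 1.66 CPM with PTN and 25 ± 3.69 CPM in Control (SD, n = 3 each), which is 1.65-fold lower with PTN (log2 -0.72 ± 0.18 SE, edgeR adjusted p = 0.0409). Stmn3 passed under 10 of 18 alternatives. Of the 6 fits that left out 1 library, the one without PTN 3 kept the call, and the others gave adjusted p-values of 0.0510 to 0.134.

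Tubb3, the neuron-restricted beta-tubulin, had 21.6, 10.3 and 20.9 CPM with PTN, against 32.0, 26.9 and 29.6 CPM in Control. All PTN values were below all Control values, PTN 2 by the widest margin. With 17.6 ± 6.33 CPM in PTN and 29.5 ± 2.54 CPM in Control (SD, n = 3 each), the log2 fold change was -0.75 ± 0.27 SE, which did not pass (edgeR adjusted p = 0.123). Its estimate was as large as that of Stmn3, but the PTN libraries of Tubb3 spread more widely.

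Map2, the dendritic microtubule-associated protein, was the most abundant of the 10 genes. Its values were 469, 451 and 272 CPM with PTN, against 214, 347 and 302 CPM in Control. PTN 1 and PTN 2 lay above all Control libraries and PTN 3 within their range. The log2 fold change was 0.47 ± 0.25 SE (edgeR adjusted p = 0.254). The antisense gene Gm10558 shares 124 exonic bases, 0.754%, with Map2.

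Dcx, or doublecortin, the microtubule-binding protein of migrating neuroblasts, was low and scattered. It had 5.16, 7.58 and 1.46 CPM with PTN, against 2.58, 5.16 and 4.12 CPM in Control, the PTN libraries holding both the highest and the lowest value. The difference (log2 0.27 ± 0.51 SE, edgeR adjusted p = 0.747) ranged from -0.24 to 0.68 with 1 library left out. Stmn2 (SCG10), the stathmin of growth cones, had 3.76, 1.78 and 1.72 CPM with PTN, against 2.62, 2.83 and 4.45 CPM in Control. Its groups overlapped and the difference did not pass (log2 -0.43 ± 0.38 SE, edgeR adjusted p = 0.465). For neither Dcx nor Stmn2 does the missed threshold show that the level was the same in both groups.

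**Figure D2:**
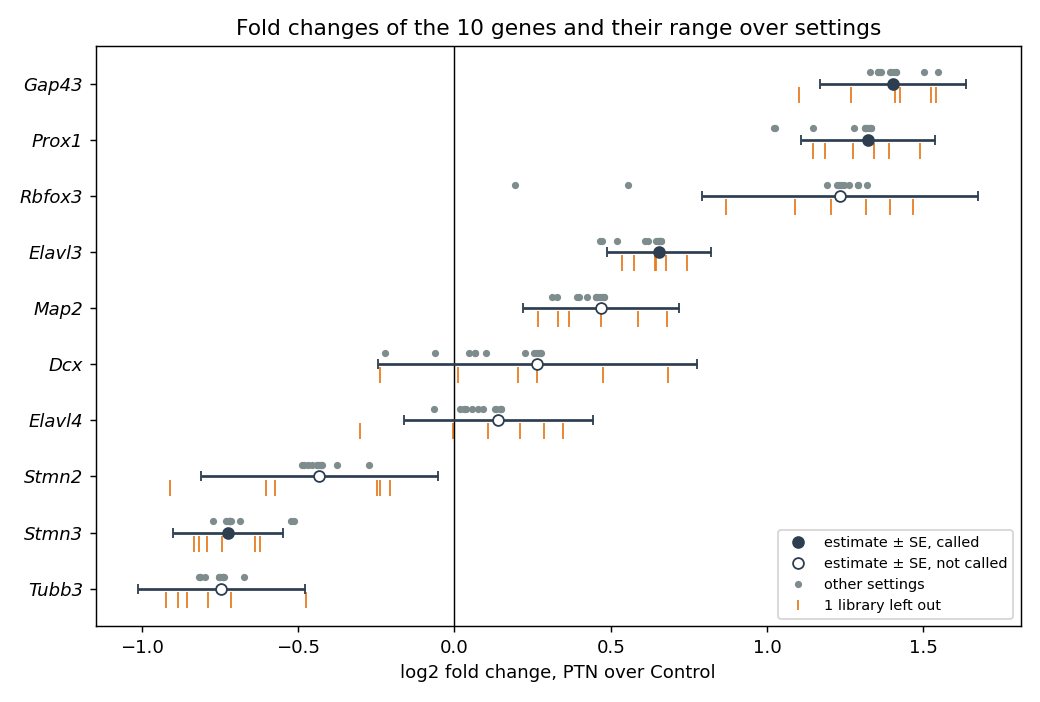
Log2 fold change, PTN over Control, of each of the 10 genes (large points, bars are SE; filled where called), with grey dots for other settings and ticks for fits that left out 1 library. Gap43 and Prox1 lie right of 1 in every fit drawn, Stmn3, Tubb3 and Stmn2 lie left of 0 in every fit, and Dcx and Elavl4 cross 0.

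The libraries did not rank the 10 genes alike. PTN 1 was the highest PTN library for 7 of the 10 genes, whereas PTN 3 was the highest for 0 and the lowest for 6. In Control, replicate 1 was the lowest for 7 of the 10. PTN 3 also had the smallest total, 19267764 expected counts against 21268297 to 26341745 in the other 5 libraries, and the smallest share of counts from mitochondrial transcripts, 3.97% against 4.47% to 8.12%. Its summed level of Y-linked genes was 7.96 CPM, against 30.4 and 74.2 CPM in the other PTN libraries and 49.3 to 102 CPM in Control. The part of these library differences in the results was not tested.

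Per length of transcript, in FPKM (fragments per kilobase, scaled to library depth), the 10 genes spanned more than 2 orders of magnitude. Map2 averaged 94.0 FPKM with PTN and 70.0 FPKM in Control, and Gap43 averaged 78.0 FPKM with PTN and 29.6 FPKM in Control. Among the genes above 0, Map2 was at percentile 95.5 with PTN and 93.0 in Control, and Gap43 at 94.3 with PTN and 82.3 in Control. Prox1 averaged 9.59 FPKM with PTN and 3.75 FPKM in Control, standing just above Tubb3 in the order with PTN and just below Elavl3 in Control. At the low end Stmn2 averaged 1.16 FPKM with PTN and 1.59 FPKM in Control, Dcx 0.593 FPKM with PTN and 0.493 FPKM in Control, and Rbfox3 0.483 FPKM with PTN and 0.297 FPKM in Control.

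The order of levels with PTN was Map2, Gap43, Stmn3, Prox1, Tubb3, Elavl3, Elavl4, Stmn2, Dcx and Rbfox3. Neighbours in this order had overlapping library ranges except Gap43 and Stmn3, Stmn3 and Prox1, and Elavl4 and Stmn2. In Control the order was Map2, Gap43, Stmn3, Tubb3, Elavl3, Prox1, Elavl4, Stmn2, Dcx and Rbfox3. There the overlapping neighbours were Gap43 and Stmn3, Elavl3 and Prox1, Prox1 and Elavl4, and Dcx and Rbfox3.

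**Figure D3:**
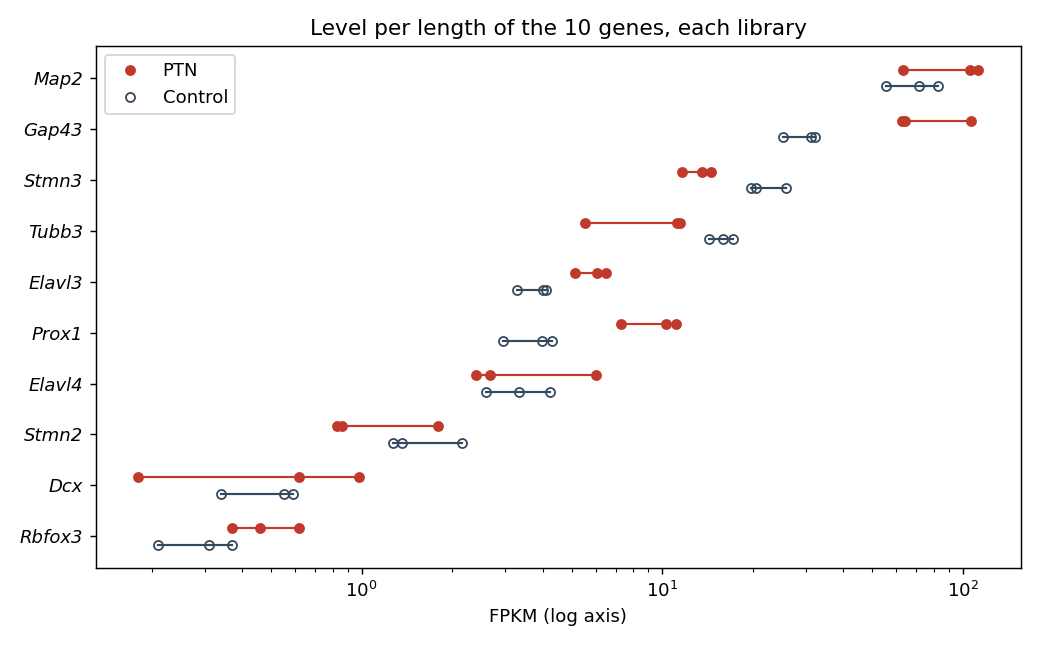
FPKM on a log axis for each of the 10 genes, PTN (filled) above Control (open), with a line over the range of the 3 libraries of a group. Gap43 and Map2 lie highest in both groups, and Stmn2, Dcx and Rbfox3 lie lowest.

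Ratios between pairs of these genes within a library set their levels side by side. The ratio of Gap43 to Tubb3, in FPKM, was 9.32, 11.4 and 5.74 in PTN 1, 2 and 3, against 1.47, 2.18 and 2.03 in Control 1, 2 and 3. All PTN ratios were above all Control ratios, which follows from Gap43 lying above Control and Tubb3 below it without overlap. Prox1 to Dcx gave 18.0, 10.5 and 40.6 with PTN, against 8.71, 7.31 and 7.25 in Control, also without overlap. The ratio in PTN 3 rests on 28 counts of Dcx. By contrast the ratio of Elavl3 to Elavl4 was 1.07, 1.91 and 2.53 with PTN, against 1.27, 0.967 and 1.2 in Control, and overlapped. The 2 stathmins, Stmn3 over Stmn2, gave 7.55, 17.0 and 14.0 with PTN, against 20.4, 14.5 and 9.53 in Control, which overlapped too. Map2 to Tubb3 gave 9.24, 20.4 and 5.66 with PTN, against 3.24, 5.79 and 4.48 in Control, and also overlapped. These pairs were chosen with the values in view and are a description, with no test.

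Fold changes in these libraries moved with gene length, which touches the genes described here because they range from short to long. The length implied by the deposited counts and FPKM was 1136 bases for Stmn3, 1420 for Gap43, and 7412 to 7836 over the libraries for Prox1. In eighths of all tested genes ordered by this length, the median log2 fold change was -0.24 in the shortest and 0.31 in the longest. Gap43 is short and rose, against the direction of that trend, while Stmn3, short and lower, and Prox1, long and higher, changed in the direction of the trend. With the trend removed, Gap43 stood at log2 1.55 (edgeR adjusted p = 0.0123) and Prox1 at log2 1.03 (adjusted p = 0.00827), both still called. Stmn3 then stood at log2 -0.51 (adjusted p = 0.120) and Elavl3 at log2 0.47 (adjusted p = 0.1), so neither passed. The implied length of Map2 ranged from 3858 to 4394 bases over the libraries and that of Elavl4 from 3402 to 4102, both with overlapping groups.

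**Figure D4:**
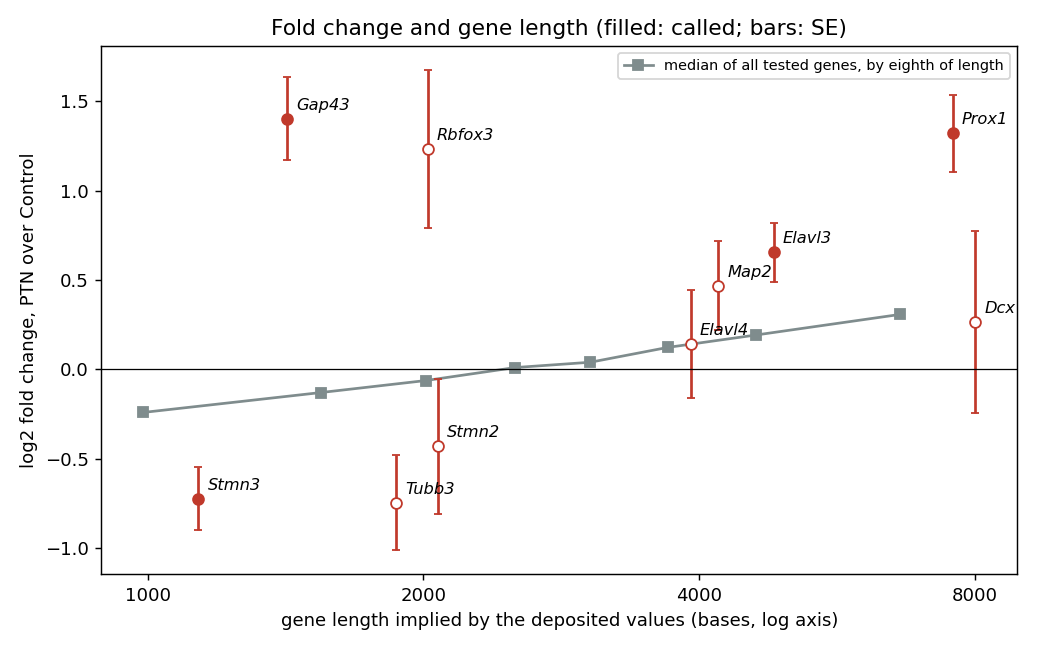
Log2 fold change, PTN over Control, of the 10 genes (bars are SE; filled where called) against the gene length implied by the deposited values on a log axis, with the median of all tested genes in each eighth of length (squares). Gap43 lies 1.40 above 0 among the short genes, where the median is below 0, and Prox1 lies above the longest eighth's median of 0.31.

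Close relatives of the 10 genes gave a similarly mixed picture. Of 26 paralogues and functional relatives, 23 were tested, and 2 were called higher and 1 lower (13% called, against 7.99% of all tested genes). Their median log2 fold change was 0.06, but -0.028 without PTN 3, -0.027 without Control 2 and -0.015 on log2 FPKM, so it had no stable direction. Basp1, a growth cone protein that like Gap43 binds membranes and is phosphorylated by protein kinase C, had 141, 111 and 106 CPM with PTN, against 61.5, 69.2 and 70.4 CPM in Control (log2 0.83 ± 0.16 SE, edgeR adjusted p = 0.0169). Map1b, a microtubule-associated protein of growing axons, had 192, 155 and 125 CPM with PTN, against 68.8, 78.5 and 80.6 CPM in Control (log2 1.05 ± 0.18 SE, edgeR adjusted p = 0.0115). The groups did not overlap for either gene. Tubb4b, a broadly expressed beta-tubulin, fell, with 261, 209 and 342 CPM with PTN against 560, 462 and 505 CPM in Control (log2 -0.91 ± 0.20 SE, edgeR adjusted p = 0.0283). None of these 3 calls held in every fit that left out 1 library: without PTN 1, Basp1 and Tubb4b were lost, without Control 1 or Control 3 all 3, and without Control 2 Basp1 and Tubb4b.

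The other stathmins and microtubule-associated proteins did not pass with edgeR, while DESeq2 called Stmn1 and Map1a lower. Map1a also passed with edgeR without PTN 2 and with no filter on low counts. Stmn1, the widely expressed stathmin of dividing progenitors, had 224, 221 and 234 CPM with PTN, against 312, 292 and 293 CPM in Control (log2 -0.40 ± 0.13 SE, edgeR adjusted p = 0.0933), with all PTN libraries below Control. Map1a, the relative of Map1b found in mature neurites, had 130, 212 and 176 CPM with PTN, against 299, 260 and 281 CPM in Control (log2 -0.70 ± 0.19 SE, edgeR adjusted p = 0.0601). Stmn4, Mapt, Map4, Map6, Dclk1 and Dclk2 had overlapping groups, as did Elavl1 and Elavl2. Rbfox2, the ubiquitous relative of Rbfox3, had 63.8, 57.9 and 65.8 CPM with PTN, against 45.5, 50.9 and 49.0 CPM in Control (log2 0.37 ± 0.13 SE, edgeR adjusted p = 0.129). Counts of Tubb2a and Tubb2b were partly fractional, so reads shared with near-identical tubulins were divided by the counting and these values are uncertain.

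Further growth cone and newborn neuron genes were read from lists that do not hold the 10 genes. These lists share genes with others, and Map1b and Basp1 were already counted among the relatives above. Of 40 growth cone and axon cytoskeleton genes 38 were tested, with 4 called higher (Dpysl3, Map1b, Basp1 and Kif5c) and 0 lower by edgeR. The edgeR calls are 10.5% of the list, against 7.99% of all tested genes. At an unadjusted p under 0.05, 10 were higher and 3 lower, and DESeq2 called 6 higher and 2 lower. The median log2 fold change of the list was 0.15, and it was 0.053 without PTN 2, 0.070 without Control 2 and 0.048 with the length trend removed. The count called higher ranged from 0 to 6 with 1 library left out, 0 without Control 1 and without Control 3. Dpysl3 (CRMP4), which binds tubulin and actin in growth cones, had 625, 571 and 578 CPM with PTN, against 291, 333 and 349 CPM in Control (log2 0.87 ± 0.14 SE, edgeR adjusted p = 0.00964). Kif5c, a neuronal kinesin heavy chain of axonal transport, had 40.5, 36.1 and 37.8 CPM with PTN, against 16.7, 24.6 and 19.8 CPM in Control (log2 0.90 ± 0.18 SE, edgeR adjusted p = 0.0191). Both sets of PTN libraries lay above Control without overlap. Dpysl3 lost its call when Control 1, Control 2 or Control 3 was left out, and Kif5c when PTN 1, Control 1 or Control 3 was.

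Of 33 newborn neuron and migration genes 26 were tested, with 3 higher (Dpysl3 again, Tiam2 and Cd24a) and 1 lower (Neurog2). That is 15.4% called. The median log2 fold change was 0.31, and it was 0.13 without PTN 2 and 0.12 on log2(FPKM + 1). The count called higher ranged from 0 to 8 with 1 library left out, 0 when Control 1, Control 2 or Control 3 was left out. Cd24a, a surface glycoprotein of neuroblasts and some progenitors, had 156, 127 and 100 CPM with PTN, against 57.8, 80.2 and 69.4 CPM in Control (log2 0.89 ± 0.20 SE, edgeR adjusted p = 0.0324). Neurog2, a proneural transcription factor, had 2, 1 and 0 counts with PTN, against 13, 17 and 10 counts in Control (log2 -3.51 ± 0.67 SE, edgeR adjusted p = 0.0178). It was under 1 CPM in every library. Its call held in 3 of the 6 fits that left out 1 library and in all 11 other settings that tested it. Sox11, which acts early in neuronal differentiation, had 139, 89.1 and 73.1 CPM with PTN, against 44.9, 68.1 and 66.4 CPM in Control, and was not called (log2 0.75 ± 0.26 SE, edgeR adjusted p = 0.114). Neurod1, Neurod2, Neurod4, Eomes and Tbr1, transcription factors of intermediate progenitors and young excitatory neurons, were under 1 CPM in all 6 libraries.

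**Figure D5:**
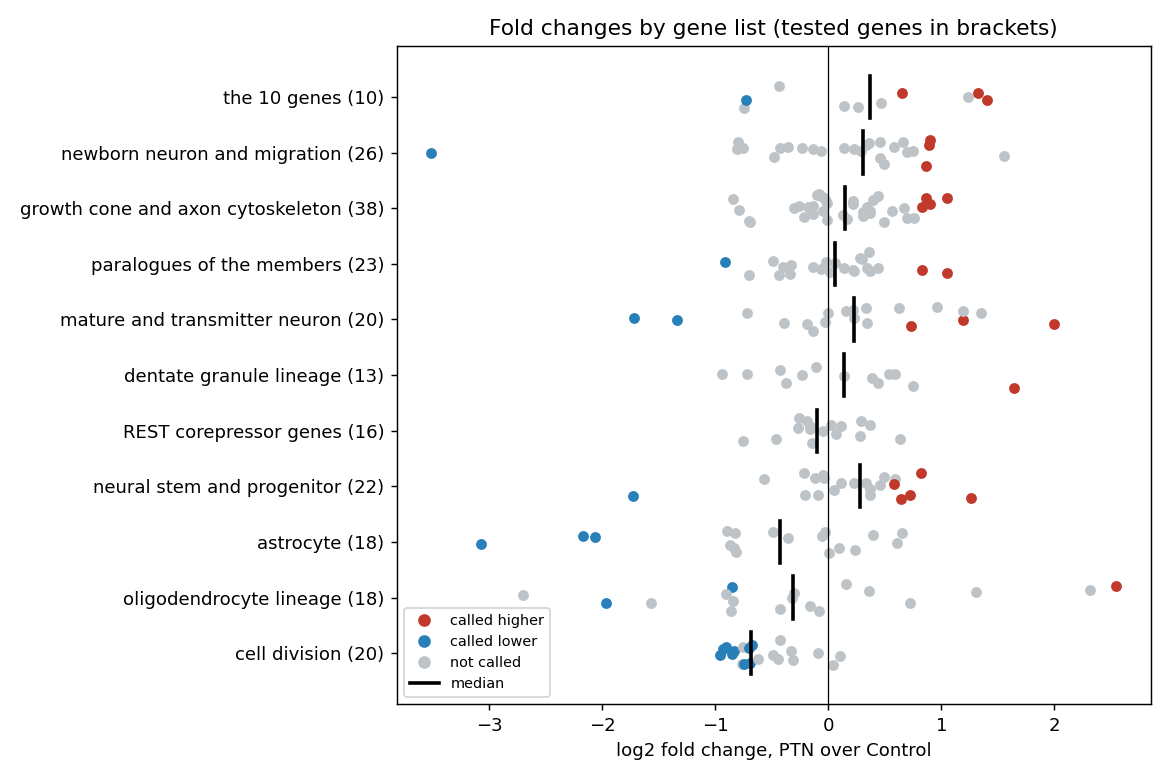
Log2 fold change, PTN over Control, of each tested gene by list (tested genes in brackets), coloured where called, with the list's median as a black bar. The 10 genes hold 3 called higher and 1 called lower, the cell division genes lie mostly left of 0, and the growth cone list has its median at 0.15, which was 0.053 without PTN 2.

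Markers of mature neurons were divided in direction. Of 28 such genes 20 were tested, 3 were called higher and 2 lower (25% called). The median log2 fold change was 0.22, and it was 0.14 without PTN 2 and 0.12 without Control 2. Gad1, the GABA-synthesising enzyme, had 3.96, 4.32 and 3.90 CPM with PTN, against 1.44, 1.57 and 2.34 CPM in Control (log2 1.19 ± 0.27 SE, edgeR adjusted p = 0.0342). In FPKM its groups overlapped, at 1.22, 1.43 and 1.18 with PTN, against 0.51, 0.58 and 1.73 in Control. The Gad1 call was lost with limma on log2 FPKM at either pseudocount. It held in 1 of the 6 fits that left out 1 library. Camk2a, the kinase of excitatory synapses, fell to 2.68, 7.85 and 4.84 CPM with PTN, against 17.9, 16.6 and 15.8 CPM in Control (log2 -1.71 ± 0.34 SE, edgeR adjusted p = 0.02). Thy1 was also called lower, and Eno2 and Slc17a7 higher, Slc17a7 on at most 24 counts a library (named after its values were seen). The count called higher was 1 with scaling by library totals, and 0 or 1 with 1 library left out. The vesicular glutamate transporter Slc17a6 was at 0 in all 6 libraries, and Slc32a1, Slc17a8, Th, Chat, Sst, Calb1 and Rbfox1 were under 1 CPM in all.

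Because Prox1 marks dentate granule cells, a list of that lineage was read beside it. Of 23 genes 13 were tested and 1, Pdzd2, was called higher by edgeR (7.69% called, against 7.99% of all tested genes). The median log2 fold change of the list was 0.14, but -0.0054 without PTN 1 and -0.084 with the length trend removed, so it had no stable direction. Pdzd2, a protein with PDZ domains, had 15.5, 20.9 and 19.0 CPM with PTN, against 5.16, 5.92 and 6.69 CPM in Control (log2 1.64 ± 0.20 SE, edgeR adjusted p = 0.00344), and it was called in all 6 fits that left out 1 library. The other granule lineage genes did not pass with edgeR, while DESeq2 called 3 of the list higher and 3 higher and 1 lower had an unadjusted p under 0.05 in edgeR. Of the list 11 of 23, among them Neurod1, Neurod2, Eomes, Calb1 and C1ql2, were under 1 CPM in all 6 libraries. Rest, the repressor that holds neuronal genes down in progenitors, had 45.9, 39.5 and 32.9 CPM with PTN, against 21.7, 27.8 and 26.7 CPM in Control, which did not pass (log2 0.64 ± 0.18 SE, edgeR adjusted p = 0.0632). Rest passed with DESeq2 and, with edgeR, without PTN 3. Of 16 genes of Rest and its corepressors 0 were called by edgeR, 1 higher and 2 lower had an unadjusted p under 0.05, and DESeq2 called 1 higher and 2 lower. The gene of smallest p, Rcor2, was lower with PTN without overlap (log2 -0.75 ± 0.20 SE, edgeR adjusted p = 0.05004). Rcor2 passed in 6 of 12 other settings and in 1 of the 6 fits that left out 1 library.

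Nes and Sox2, markers of the labelled cell type, were present in every library, which is a description and not a test of the label. Nes, the intermediate filament of neural stem cells, had 1295, 709 and 962 CPM with PTN, against 682, 722 and 761 CPM in Control, and Sox2 had 199.9, 284 and 159 CPM with PTN, against 149, 181 and 166 CPM in Control. The groups overlapped for both, and neither was called. No gene of the 22 in the stem and progenitor list was under 1 CPM in all libraries. The summed level of that list was 12406 to 13959 CPM with PTN and 9283 to 10277 CPM in Control. Of 22 tested 5 were called higher and 1 lower (27.3% called, against 7.99% of all tested genes). With 1 library left out, 0 to 6 were called higher. The called genes of smallest p were Hes5, lower (log2 -1.73 ± 0.32 SE, edgeR adjusted p = 0.0151), and Egfr, Cd44 and Tnc, higher. None of these calls held in every fit that left out 1 library. The newborn neuron list summed to 3023 to 3572 CPM with PTN and 2545 to 2777 CPM in Control, and the mature neuron list to 668 to 812 CPM with PTN and 556 to 678 CPM in Control. The astrocyte list summed to 5993 to 10822 CPM with PTN, below the stem and progenitor list, and to 14385 to 15675 CPM in Control, above it.

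Markers of other cell types and of division were read beside the 10 genes. The summed astrocyte markers were 5993 to 10822 CPM with PTN and 14385 to 15675 CPM in Control. By edgeR 3 of 18 were called lower (Aldoc, Gjb6 and Gfap) and 0 higher (16.7% called, against 7.99% of all tested genes). DESeq2 called 8 lower and 0 higher, and 9 were lower and 1 higher at an unadjusted p under 0.05 in edgeR. With 1 library left out, 1 to 8 of them were called lower. Of 20 cell division genes 9 were called lower and 0 higher (45% called; 0 higher also by DESeq2 and at an unadjusted p under 0.05), with sums of 1813 to 2793 CPM with PTN and 2821 to 3244 CPM in Control. The count called lower ranged from 0 to 13 with 1 library left out, 0 without Control 1 and without Control 3. Among 18 tested oligodendrocyte lineage genes 1 was called higher and 2 lower (16.7% called). The sums overlapped, at 3479 to 4054 CPM with PTN and 3317 to 3755 CPM in Control. Of 12 microglial markers 2 were tested and 0 called by edgeR, by DESeq2 or at an unadjusted p under 0.05, with 10 under 1 CPM in all libraries, including Cx3cr1, Aif1 and Csf1r. Endothelial and mural markers summed to 24.7 to 49.2 CPM with PTN and 81.4 to 88.9 CPM in Control. Of these, 2 of 7 tested were called lower (28.6% called), and Cldn5 and Cdh5 were under 1 CPM. Of 9 tested fibroblast and meningeal markers 2 were called higher and 3 lower (55.6% called), with Dcn and Lum under 1 CPM in all libraries. Of 10 ependymal and choroid plexus markers 6 were tested, with a median log2 fold change of 0.83. By edgeR and by DESeq2 0 were called, 2 were higher at an unadjusted p under 0.05, and 5 were under 1 CPM in all libraries. Their sums were 65.3 to 115 CPM with PTN and 76.6 to 95.3 CPM in Control. In that list Ttr, the transthyretin of choroid plexus, had 40, 38 and 304 counts in PTN 1, 2 and 3, against 8, 17 and 45 counts in Control 1, 2 and 3 (named after its values were seen). The part of these cell type and division markers in the values of the 10 genes was not tested.

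The genes whose pattern over the 6 libraries was most like that of each called gene were ranked by Pearson's r of log2 CPM among 12168 genes, as a description. For Gap43 these were Lancl3 (r = 0.9985), Cflar (0.9964) and its relative Basp1 (0.9960). Prox1 was most like Frmd3 (0.9986), Sytl2 (0.9979) and D16Ertd472e (0.9979), and Elavl3 most like Ptgfr (0.9985), Nfe2l2 (0.9945) and Wwtr1 (0.9937). For Stmn3 the nearest were Taf11 (0.9957), Dmrtb1 (0.9903) and Wnt4 (0.9863). All of these share the 6 libraries and the difference between the groups, and with so many candidates for 6 points high values arise readily.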

How the data were processed

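RNA was isolated with a column kit and made into mRNA libraries, per the labels' protocols. The aligner, counting tool, build and annotation were not given in the sources used here. Deposited by the authors were expected counts, estimated reads or fragments per gene that are not scaled between libraries, of which 91.9% to 92.8% per library are whole within 0.005. The authors also deposited FPKM values, the same measurement per kilobase and scaled by depth. Columns were matched to samples by group letter and replicate number.

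Expected counts were rounded, filtered with filterByExpr (13161 of 22322 genes, 59%), scaled by TMM and compared with edgeR 4.0.16 in R 4.3.3 (quasi-likelihood test, PTN minus Control, no covariate, Benjamini-Hochberg adjustment over all tested genes, called under 0.05). SE is the log2 fold change divided by the square root of F. CPM are scaled by TMM, and totals of 19267764 to 26341745 counts mean that genes under 1 CPM rest on few counts. Implied length is count over FPKM and total, where FPKM was at least 0.5, so it was unavailable for 490 tested genes. The counts of all 10 genes were whole in every library. Overlaps were read from GENCODE M21 and promoters from RefSeq tables, by symbol.

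The 10 genes and all lists were chosen with earlier results of these data known. Named beside the 10 were tested paralogues, Rest, up to 4 called genes of smallest p in each list (or the gene of smallest p), and the 3 most similar genes for each called member. Some genes under this rule are given as counts, and Nes, Sox2, Sox11 and the markers listed as under 1 CPM were named after their values were seen. Alternatives were library totals, upper-quartile scaling or DESeq2 size factors in place of TMM, no filter, 1 CPM in 3 libraries, DESeq2 1.42.0, limma-voom (limma 3.58.1), limma on log2 FPKM with pseudocounts of 0.1 and 1, the replicate number as a block, removal of the length trend, both together, and leaving out each library. The test was also run on simulated counts with a smaller spread between libraries than these data and no length trend. That run does not give the error rate of the test here. Libraries were compared for duplicates, and the closest pair differed by 11.9 times the sampling noise (chi-square per degree of freedom).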

Additional observations from a re-analysis of the deposited data

How the results depend on the processing

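Gap43 kept its direction in all 18 alternatives and its call in 17, Prox1 its call in all 18, Stmn3 in 10 and Elavl3 in 7. All genes called numbered 1908 with DESeq2's Wald test (1134 higher, 774 lower, and 67 in the lists), against 1052 with edgeR (649 higher, 403 lower, and 41 in the lists). With 1 library left out they numbered 331 to 2177 (201 to 1273 higher, 130 to 904 lower, 6 to 63 in the lists). Of the 10 genes, 1 to 4 were then called (1 to 3 higher, 0 to 1 lower). With the length trend removed 2 were called, 0 of them lower. Higher calls were 61.7% of all calls, and 54.3% to 69.0% over the alternatives.

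The labels do not state whether replicate numbers pair the libraries. Deviations from the group mean correlated at -0.506, 0.362 and -0.00494 for same-numbered libraries, and at -0.586 to 0.487 for the others. With 3 libraries a group, these values cannot decide whether the libraries were paired. With the replicate block 726 genes were called, and 2 of the 10, 0 of them lower, Stmn3 having an adjusted p of 0.0939 and Elavl3 of 0.134. With the replicate block and the length trend removed 626 were called (361 higher, 265 lower), with the same 2 and 0 of the 10.

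These log2 fold changes turned round, none of them called. Dcx gave -0.061 with the length trend removed, -0.22 with the block too, and -0.24 to 0.68 with 1 library left out. Elavl4 gave -0.064 with the trend removed and the block, and -0.30 to 0.35 with 1 left out. Dclk1 gave -0.19 on log2 FPKM with either pseudocount, -0.036 with the trend removed, -0.069 with the block too, and -0.053 to 0.35 with 1 left out. Tubb2a gave 0.078 with the trend removed, 0.018 with the block too and -0.39 to 0.22 with 1 left out. Map4 gave -0.10 with the trend removed, -0.10 with the block too and -0.028 to 0.12 with 1 left out. Elavl1 gave -0.028 with upper-quartile scaling, -0.0152 and -0.0146 on log2 FPKM with pseudocounts of 0.1 and 1, -0.0047 with the trend removed and the block, and -0.056 to 0.13 with 1 left out. With 1 left out, Tubb2b ranged from -0.17 to 0.036, Stmn4 from -0.15 to 0.68 and Mapt from -0.15 to 0.54. The causes were not tested. Rbfox3 was not in the fit of genes with 1 CPM in 3 libraries. Counts were lowest for Rbfox3, Dcx and Stmn2 among the 10 genes, at 6 to 170 a library. The part of depth in their spread was not tested.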
